A study of Homo sapiens with 12 samples.

Results

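FOXA1 binding under an EZH2 inhibitor was set directly against FOXA1 binding under a USP7 inhibitor. The comparison used 4 of the 12 ChIP-seq libraries of the series, all of LNCaP cells: 2 libraries after 1 µM EPZ-6438 and 2 after 3 µM P5091, each for 7 days. They were chosen by their labelled antibody and treatment, not by a measured value. The remaining 8 libraries are FOXA1 under DMSO (2 libraries) and under 1 µM EPZ-6438 plus 3 µM P5091 together (2 libraries), also at 7 days, and 4 single HA-tag libraries made 5 days after infection (a pGIPZ control, a hairpin against FOXA1, and that hairpin with wild-type or K295A FOXA1). The doses of the compounds differ, so a difference between them is one between these treatments as given. All groups are 1 cell line in culture, and whether replicates 1 and 2 were separate cultures is not labelled. The p-values given here therefore describe these libraries and no more. The identity of the cells and the activity of either compound on its enzyme were not analysed here.

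LNCaP is an androgen-responsive line from human prostate cancer. FOXA1 is a forkhead pioneer factor: it binds its sites in closed chromatin, mostly at enhancers, and in luminal prostate cells it opens sites that the androgen receptor then uses. EZH2 is the catalytic subunit of Polycomb repressive complex 2, which methylates histone H3, and it can also methylate other proteins; EPZ-6438 (tazemetostat) blocks that activity. USP7 is a deubiquitinase, which removes ubiquitin from proteins and can spare them from degradation, and P5091 inhibits it. The series title places both enzymes in the control of FOXA1 protein stability, and the comparison asks whether the FOXA1 binding map looks different when one or the other is inhibited.

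The EPZ-6438 libraries held 22589685 and 12299238 tags and gave 77780 and 84423 peaks in replicates 1 and 2. The P5091 libraries held 15329943 and 16522678 tags and gave 68504 and 82825 peaks. Peaks took 18.86% to 21.2% of the tags of the 4 libraries, so none of them stood apart in enrichment. The fewest tags that made a peak at the false discovery rate of the authors, scaled to a library of 1e7 tags, were 6.2 and 8.13 with EPZ-6438 and 7.83 and 6.66 with P5091. The threshold was therefore lower with EPZ-6438 in replicate 1 and lower with P5091 in replicate 2. The replicate numbers differed in fragment length, from 274 to 278 bases in replicate 1 and from 224 to 230 bases in replicate 2, and comparisons were made within a replicate number. Of the libraries used for context, combination replicate 1 was weak, with 30811 peaks and 5.26% of its tags in peaks.

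Few regions were called in both libraries of one compound and in neither of the other, and those regions were weak. Peaks of the 4 libraries that shared at least 1 base merged into 121881 regions with a median width of 370 bases. Of these, 44445 (36.5%) had a peak in all 4 libraries 75889 (62.3%) had a peak in at least 1 library of each compound, and 37378 (30.7%) had a peak in a single library. A peak in both EPZ-6438 libraries and in neither P5091 library was found at 5001 regions (4.1%), and the reverse at 3613 regions (2.96%). Both libraries of a compound were filtered against the same input, so their calls are not independent. That filter removed 7485 to 15905 putative peaks per library, and its part in the compound-only regions was not tested. The replicate number divided the map about as much as the compound did: 6606 regions were called in both libraries of replicate 2 and neither of replicate 1, and 2568 the other way round. Mixed pairs, 1 library of each compound from different replicate numbers, accounted for 2561 and 1452 regions.

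**Figure D1:**
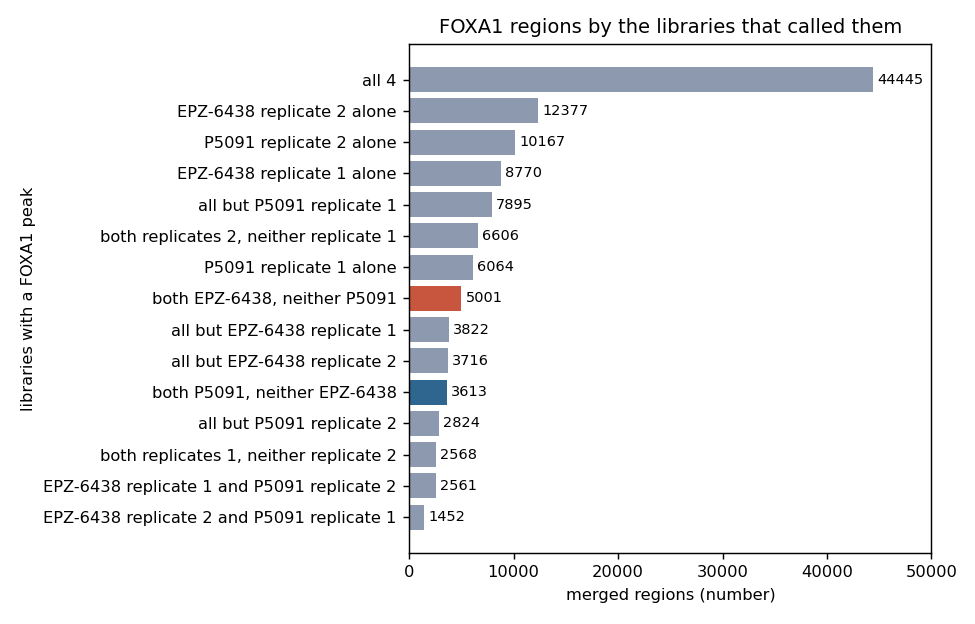
Number of merged FOXA1 regions (horizontal axis) for each set of libraries that called them (vertical axis), among the 2 EPZ-6438 and 2 P5091 libraries; each bar is a count of regions, with no error. The bar of 44445 regions called in all 4 libraries is the longest, and the compound-only bars, 5001 for EPZ-6438 (red) and 3613 for P5091 (blue), lie among those of regions divided by replicate number.

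The larger number of regions called with EPZ-6438 only depended in part on the peaks taken. With the same number of top-scoring peaks from every library, 3379 regions were called with EPZ-6438 only and 3425 with P5091 only, so the order turned narrowly. With only peaks that scored at or above the median the numbers were 1448 and 1162, and the order stayed. Regions of both kinds lay near the limit of calling. Their median normalized tag counts (tags in the peak per 1e7 tags of the library) were 11.5 and 13.0 in replicates 1 and 2 of EPZ-6438 for the EPZ-6438-only regions, and 13.7 and 11.5 in P5091 for the P5091-only regions. In 48.8% and 50.2% of them at least 1 of the 2 peaks was within 1.5 times its library's calling threshold. Regions called in just 1 library of each compound were about as weak, with medians of 10.9 to 13.8. At the regions called in all 4 libraries, by contrast, the median was 23.9 to 26.1. A region absent from a list can therefore still hold tags, which a peak list does not show.

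The DMSO libraries, which had no part in choosing the regions, held far more of the P5091-only regions than of the EPZ-6438-only ones. Of the P5091-only regions, 56.7% had a peak in DMSO replicate 1 and 61.4% in replicate 2, beside 54.0% and 60.4% of all merged regions. Of the EPZ-6438-only regions, 30.5% and 37.8% did. All merged regions mix those called in all 4 libraries (92.4% and 94.1%) with those called in 1 (16.2% and 21.9%), so they are no matched baseline for either set. Both DMSO libraries called 43.2% of the P5091-only regions and 18.1% of the EPZ-6438-only regions, and neither called 25.1% and 49.8%. With all deposited peaks, the share lacking any DMSO peak was therefore larger among the EPZ-6438-only regions.

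That order was the same at every strength. With the weaker of the compound's peaks below 10 normalized tags, both DMSO libraries called 10.7% of the EPZ-6438-only and 31.2% of the P5091-only regions. Between 10 and 15 tags the shares were 19.3% and 46.4%, between 15 and 20 tags 40.0% and 60.8%, and at 20 tags or more 44.2% and 68.5%. With equal numbers of top peaks they were 24.4% and 50.7%. The level of both shares rested on the peaks taken: with only peaks of the 4 libraries that scored at or above the median, both DMSO libraries called 60.4% of the EPZ-6438-only and 81.2% of the P5091-only regions, so that most regions of either kind had DMSO peaks. Without EPZ-6438 replicate 1 the shares were 8.08% and 51.1%, and without its replicate 2 they were 10.9% and 50.5%. Between single libraries of the same replicate number, a setting added once the data had been seen, the shares were 20.7% and 33.2% for replicate 1 and 14.6% and 25% for replicate 2. Leaving out 1 library of P5091 alone turned the order (28.8% and 16.7% without replicate 1, 30.3% and 24.3% without replicate 2), where a P5091-only region had to be called in 1 library and an EPZ-6438-only region still in 2. Regions of a library are not replicates, so no test is given for these shares.

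The combination and the HA-tagged proteins give the same regions a further reading. In combination replicate 2, which held about as many peaks as the single-compound libraries, 55.4% of the EPZ-6438-only regions and 44.8% of the P5091-only regions had a peak, beside 61.0% of all regions. In the weak combination replicate 1 the shares were 7.86% and 7.94%, beside 24.8%. Tagged wild-type FOXA1, made without either compound, occupied 30.4% of the EPZ-6438-only and 47.2% of the P5091-only regions, beside 50.7% of all regions. Tagged K295A FOXA1 occupied 24.7% and 40.6%, beside 46.7%. The untagged control libraries had a peak at 0 EPZ-6438-only regions and at 3 and 4 of the P5091-only ones. The P5091-only regions had the higher share of the 2 sets in both DMSO and both tagged libraries, the EPZ-6438-only regions in combination replicate 2. In both tagged libraries and both combination libraries, each set lay below the share of all regions. That share mixes regions called in all 4 compared libraries (93.9% in combination replicate 2) with those called in 1 (23.7%). A set called in 2 of the 4 is not matched to it, so the distance from it is not read as a trait of either compound.

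**Figure D2:**
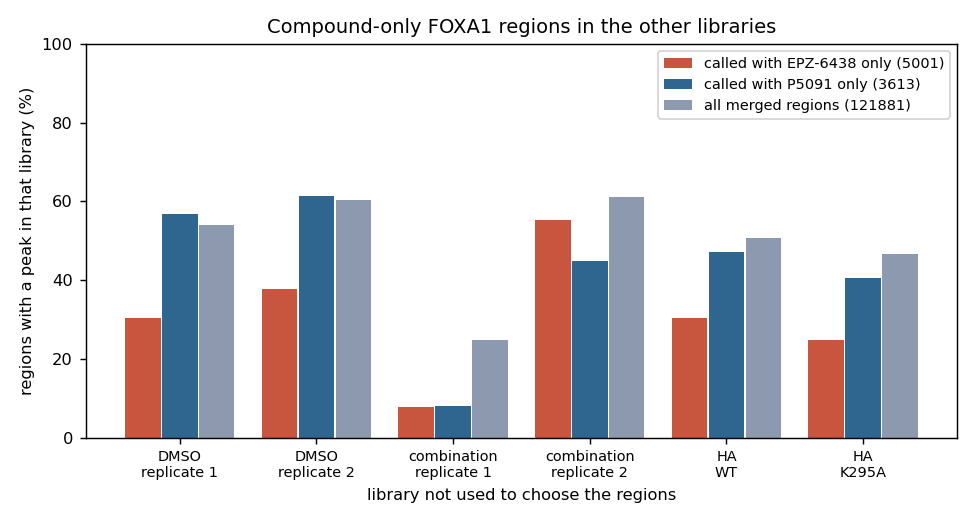
Share of regions with a peak (vertical axis, percent) in 6 libraries not used to choose them (horizontal axis), for regions called with EPZ-6438 only (red), called with P5091 only (blue) and all merged regions (grey); bars are shares in 1 library, with no error. Blue exceeds red in DMSO (56.7% against 30.5% in replicate 1) and in the HA libraries, and red exceeds blue in combination replicate 2 (55.4% against 44.8%).

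Among the strongest compound-only regions, many were neighbouring summits rather than isolated sites. A peak of the other compound lay within 1000 bases, centre to centre, of 252 EPZ-6438-only regions (5.04%) and 288 P5091-only regions (7.97%). Where both peaks of the compound had at least 30 normalized tags, this was so for 10 of 19 (52.6%) and 12 of 24 (50%). Per the file headers, peaks of 1 library are kept at least 580 to 726 bases apart, so a library cannot list 2 closer summits. Of the 5 strongest EPZ-6438-only regions on chromosomes 1 to 22 and X, 4 had such a neighbour, and 4 of the 5 strongest P5091-only regions did.

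The clearest case lay on chromosome 2. EPZ-6438 had its peaks at chr2:181122663-181123025 (hg19), with tag counts of 42.5 and 61.0, and P5091 had its peaks at chr2:181123036-181123392, with 75.7 and 72.6. DMSO was called at the P5091 position, with 81.2 and 77.8, and at no peak overlapping the EPZ-6438 position, while peaks of both combination libraries overlapped both. On chromosome 7 the EPZ-6438 peaks at chr7:133119007-133119369 (53.6 and 59.4) faced P5091 peaks at chr7:133118573-133118968 (73.1 and 47.8); here DMSO replicate 1 was called at the P5091 position (58.5) and DMSO replicate 2 at the EPZ-6438 position (43.0). The DMSO replicates thus differed from each other at that pair in the way the compounds did.

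Another pair lay on chromosome 3, with EPZ-6438 at chr3:97647002-97647364 (38.5 and 48.8) and P5091 at chr3:97646440-97646879 (53.5 and 53.9). DMSO replicate 1 was called at the EPZ-6438 position with 34.4 and DMSO replicate 2 at the P5091 position with 43.0, again 1 library on each side. On chromosome 18 the EPZ-6438 region chr18:21430993-21431355 (55.8 and 50.4) lay beside P5091 peaks that began at 21431547 and 21431542 (93.9 and 41.2). On chromosome 10 the P5091 region chr10:27835921-27836330 (47.6 and 45.4), also called with DMSO (62.9 and 48.8), lay beside EPZ-6438 peaks that began at 27836383 and 27836393 (34.5 and 42.3). All of these regions are bound under both compounds within 1000 bases. Merging peaks within 1000 bases edge to edge, a wider rule than centre to centre, left 4720 EPZ-6438-only and 3255 P5091-only regions.

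The compound-only regions with no peak of the other compound within 1000 bases were ranked separately. The strongest with EPZ-6438 was chr2:220264825-220265187, with 77.0 and 51.2, which DMSO replicate 2 (55.2) and combination replicate 2 (68.7) also called. The next, chr15:58622289-58622651, had 42.1 and 37.4 with EPZ-6438, 26.7 in DMSO replicate 2 and 16.9 and 27.6 with the combination. At chr16:82182506-82182890, EPZ-6438 gave 34.1 and 43.9 and DMSO 46.1 and 37.7. At chr5:168253347-168253709 EPZ-6438 gave 32.8 and 31.7 and DMSO 36.6 and 28.4, so at both regions the DMSO signal was about that of EPZ-6438. At chr19:57446153-57446515, EPZ-6438 gave 34.1 and 36.6 and the combination 15.6 and 35.5, and neither DMSO library nor either tagged FOXA1 library had a peak. This last region was called in all 4 libraries that received EPZ-6438 and in none of the 4 FOXA1 libraries without it. The other 4 of these 5 regions were each called in at least 1 DMSO library.

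With P5091 the strongest such region was chr11:93971020-93971376, with 71.8 and 44.8, called in DMSO replicate 2 (62.7), in combination replicate 2 (44.2) and with both tagged proteins. The region chr12:124890597-124890965 had 54.1 and 43.0 with P5091, 47.5 and 43.0 in the DMSO libraries and 13.1 and 41.8 in those of the combination. At chr15:93160855-93161211, P5091 gave 70.5 and 35.7 and DMSO 85.6 and 51.7, and no library with EPZ-6438, alone or combined, had a peak. The nearest EPZ-6438 peak to this last region lay 1978 bases away, centre to centre. With P5091 all 5 leading regions without a neighbour were called in at least 1 DMSO library.

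Over the whole map, neither the number of peaks nor the typical signal separated the compounds. Peak number was 81101.5 ± 4700 (SD, n = 2) with EPZ-6438 and 75664.5 ± 10100 (SD, n = 2) with P5091. The mean log2 difference was 0.105 (exact permutation p = 0.667, two-sided), with 0.183 in replicate 1 and 0.028 in replicate 2. At the 44445 regions common to all 4 libraries the median tag count was 23.9 and 26 with EPZ-6438 and 26.1 and 25.4 with P5091. The mean log2 difference of these medians was -0.045 (exact permutation p = 0.667, two-sided), -0.122 in replicate 1 and 0.032 in replicate 2. The libraries of the compounds overlapped in the median, and with 2 against 2 no two-sided p under 0.33 can be reached.

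Region by region, FOXA1 signal was similar under the compounds at nearly all shared sites, and a small set differed in the same direction in both replicates. Shared sites had a peak in all 4 libraries, so a site below the calling threshold in any of them is left out. That filter itself limits how far apart weak sites can be. After each library was centred on its median, the difference of EPZ-6438 minus P5091 (log2 of tag count + 1) was within 2-fold at 95.5% of the 44445 regions in replicate 1 and at 97.0% in replicate 2. The differences of the replicates had a Pearson r of 0.205 and a Spearman rho of 0.193 across regions, which share their libraries and are not independent. A difference of at least 2-fold the same way in both replicates was found at 125 regions (0.281%): 68 higher with EPZ-6438 (0.153%) and 57 lower (0.128%). At 10 regions the replicates were 2-fold apart in opposite directions.

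Within replicate numbers, limma called 222 of the 44445 regions at an adjusted p under 0.05 (0.499%), 90 higher with EPZ-6438 (0.202%) and 132 lower (0.297%). All 222 had the same sign in both replicates, beside 56.5% of all tested regions, and 72 were at least 2-fold apart in both. A call rests on the mean of both replicate differences, so the test itself favours regions with a shared sign. Without centring the split was 46 higher and 116 lower. The fit had 1 residual degree of freedom and took its spread wholly from the trend across regions, so a region more variable than others of its strength is not penalised. Without the replicate block, limma called 0 regions (1604 at an unadjusted p under 0.05), and it called 0 with any 1 of the 4 libraries left out (1220 to 2778 unadjusted), which can only be fitted without the block.

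The called regions were also fitted together with the other FOXA1 libraries, which adds information on spread. With all 8 libraries, at the 24188 regions with a peak in each, limma called 8 regions, 2 higher and 6 lower. Without the weak combination replicate 1, at 37643 regions, it called 66, 18 higher and 48 lower, all of them among the 222, of which 199 could be tested there. The estimate of each difference rests on the same 4 libraries in these fits, so they bear on the spread and not on the direction. The count was 41 without EPZ-6438 replicate 1, 96 without EPZ-6438 replicate 2, 0 without P5091 replicate 1 (1814 at an unadjusted p under 0.05) and 10 without P5091 replicate 2. Which regions are called depends on single libraries, above all P5091 replicate 1.

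**Figure D3:**
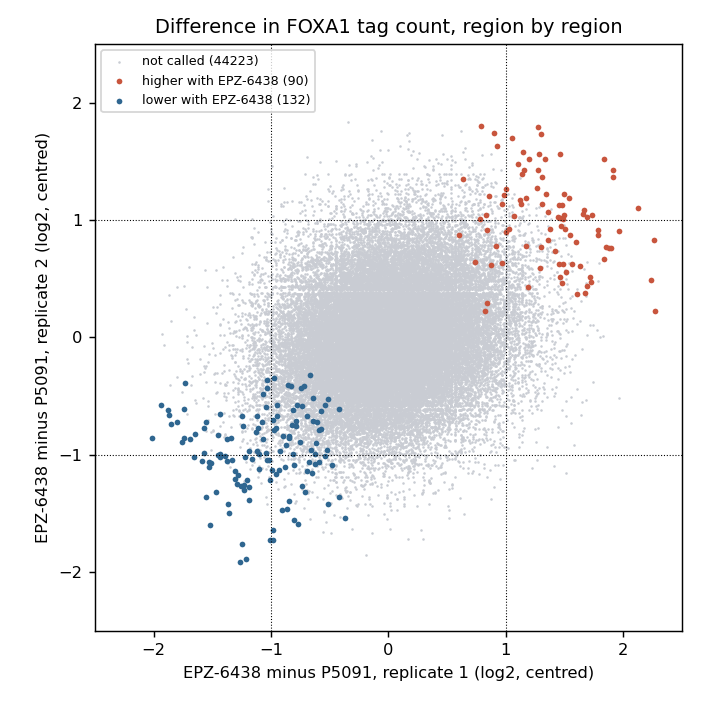
Difference of EPZ-6438 minus P5091 at the 44445 regions called in all 4 libraries, in replicate 1 (horizontal axis) and replicate 2 (vertical axis), as centred log2 (tag count + 1); each point is a region and dotted lines mark 2-fold. The cloud is nearly round, with r = 0.205. The 90 red and 132 blue called regions lie in the corners where both replicates have the same sign, which the test favours.

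The called regions that were lower with EPZ-6438 were stronger sites than those that were higher. Their median mean tag count was 51.2, against 33.0 for the higher ones and 25.4 for all tested regions. The difference itself moved with strength (given with the strength classes). With that trend removed limma called 101 regions higher and 102 lower, and the strength of those calls was not compared. Both DMSO libraries called all 132 of the lower regions, and DMSO replicates 1 and 2 called 78 (86.7%) and 85 (94.4%) of the 90 higher ones, beside 92.4% and 94.1% of all tested regions. Tagged wild-type FOXA1 had a peak at 97.7% of the lower and 80.0% of the higher regions, beside 80.7% of all tested. All tested regions are weaker sites than the called ones, so these shares are not matched for strength. Nearly all tested regions, called or not, thus also had a peak with DMSO. The median log2 difference was -1.04 at the lower and 1.22 at the higher regions, values that the test had selected.

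The 5 lower regions with the smallest p on chromosomes 1 to 22 and X had tag counts of 54.1 or more in both P5091 libraries. At chr3:176477688-176478096 the tag count was 97.8 and 63.4 with EPZ-6438 and 232.2 and 122.3 with P5091, a log2 difference of -1.04 ± 0.17 (SE, limma adjusted p = 3e-06). At chr10:47106052-47106426 it was 82.3 and 30.1 with EPZ-6438 and 206.1 and 72.6 with P5091 (-1.23 ± 0.20, limma adjusted p = 3e-06). The first region had both EPZ-6438 values below both P5091 values, whereas at the second EPZ-6438 replicate 1 exceeded P5091 replicate 2, and the difference holds within replicate numbers.

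Chromosome 9 carried the next 2. At chr9:110146901-110147285 the counts were 55.3 and 26 with EPZ-6438 and 142.9 and 62.3 with P5091 (log2 difference -1.25 ± 0.22). At chr9:3490985-3491391 they were 25.2 and 37.4 against 88.7 and 75 (-1.34 ± 0.24). At chr5:54506981-54507373 they were 20.8 and 16.3 against 54.1 and 61.7 (-1.55 ± 0.28, limma adjusted p = 0.000247). In all 3 regions the libraries of the compounds did not overlap. DMSO lay with P5091 at each: 147.7 and 80.1, then 82.6 and 88.8, then 46.8 and 49.3 tags. The combination gave 18.1, 12.5 and 15 in its weak replicate 1. Combination replicate 2 gave 18.9 at chr9:110146901-110147285 and 18.9 at chr5:54506981-54507373, close to EPZ-6438, and 51.3 at chr9:3490985-3491391, between the compounds.

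The 5 higher regions with the smallest p had P5091 tag counts between 11.5 and 35.1. At chr20:57874884-57875285 the tag count was 66.8 and 51.2 with EPZ-6438 and 14.4 and 27.8 with P5091 (log2 difference 1.54 ± 0.28 SE, limma adjusted p = 0.000179). Its difference was 2.26 in replicate 1 and 0.83, under 2-fold, in replicate 2. The SE and p of each named region take their spread from the trend across regions, not from the region itself. At chr1:240286216-240286592 the tag count was 71.7 and 74.0 against 28.0 and 35.1 (1.24 ± 0.24, limma adjusted p = 0.00107). At chr8:105805530-105805906 it was 42.9 and 39.8 against 11.7 and 14.5 (1.64 ± 0.32). In each of these the libraries of the compounds did not overlap, and the DMSO values of 14.6 and 21.5, 32.2 and 24.4, and 24.1 and 16.8 lay below both EPZ-6438 values. The combination gave 56.8 at the first, in replicate 2 alone, 26.3 and 48.9 at the second, and 10.6 and 20.5 at the last, which was near DMSO and below EPZ-6438.

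At chr11:115119881-115120293, EPZ-6438 gave 34.5 and 65.0 and P5091 15 and 17.6 (log2 difference 1.53 ± 0.30). At chr16:73647485-73647883 the counts were 42.9 and 33.3 against 11.7 and 11.5 (1.67 ± 0.33, limma adjusted p = 0.0014). Neither region had overlapping compounds. DMSO replicate 1 had no peak at the region on chromosome 11 and DMSO replicate 2 gave 14.5, and the combination gave 21.3 and 40.2 there. At the region on chromosome 16 DMSO gave 20.5 and 14.5 and the combination 8.75 and 29.2. Of the 10 regions named in either direction, 8 could be tested with 7 libraries and limma called all 8. With all 8 libraries it called 6 of 7, and without the replicate block 0 of 10. The regions were picked for the smallest p in the EPZ-6438 and P5091 libraries, which also supply the estimate in the wider fits. Being called again there bears on the spread and is no separate test of the difference. Which regions are called also depended on single libraries.

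**Figure D4:**
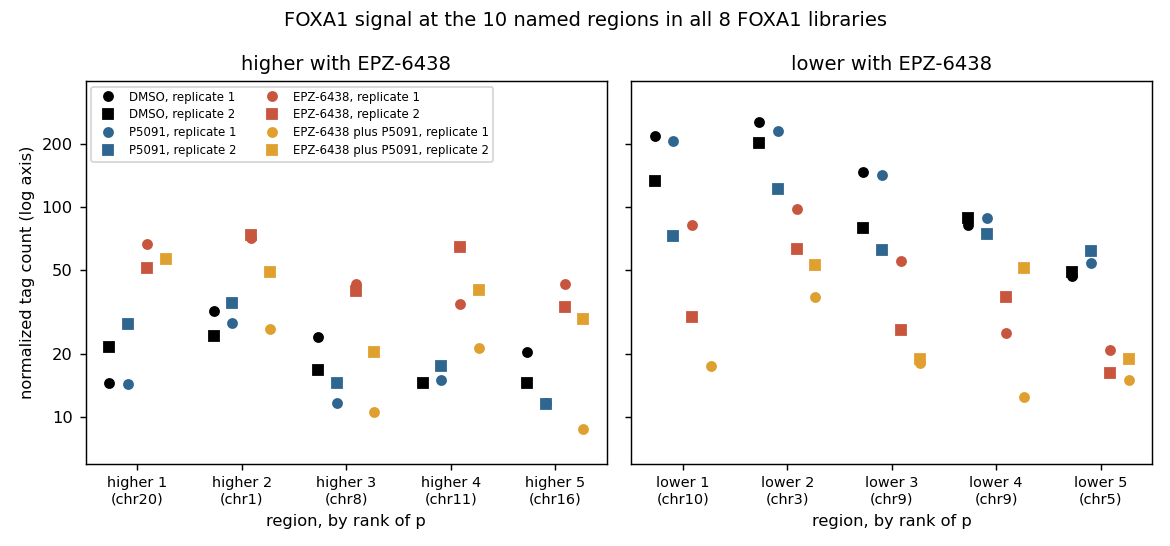
Normalized tag count (vertical axis, log scale) at the 5 higher (left) and 5 lower (right) named regions, ordered by p on the horizontal axis, in each FOXA1 library; circles are replicate 1, squares replicate 2, and a missing point means no peak. The red EPZ-6438 points lie apart from the blue P5091 points within each replicate, for example 66.8 and 51.2 against 14.4 and 27.8 at the first higher region, and the black DMSO points lie mostly near P5091.

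The 3 strongest FOXA1 sites on chromosomes 1 to 22 and X did not pass the test, whereas 3 still stronger regions on an unplaced contig did. At chr2:242032793-242033166 the tag counts were 540.5 and 453.7 with EPZ-6438 and 658.8 and 519.3 with P5091, a log2 difference of -0.19 ± 0.09 (SE, limma adjusted p = 0.333). At chr15:69886978-69887346 they were 501.1 and 324.4 against 606.7 and 382.5 (-0.21 ± 0.09, limma adjusted p = 0.336), and at chr8:52811544-52811913 437.4 and 404.1 against 465.1 and 355.9 (0.09 ± 0.10, limma adjusted p = 0.78). EPZ-6438 and P5091 overlapped in tag count at all 3 sites.

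The combination and DMSO libraries offer a comparison that shares no library with the one that chose the 222 regions, except through the shift given below. Only regions with a peak in both libraries have a value: in replicate 1 the combination had a peak at 70 of the 90 higher and 97 of the 132 lower regions, and in replicate 2 at 88 and 125. Leaving out regions with no combination peak favours values above DMSO. Each DMSO and combination library was shifted by its median difference from the mean of the EPZ-6438 and P5091 libraries. It was not centred on its own median. After that shift, the combination lay above DMSO at 59 of 61 higher regions with a value in replicate 1. In replicate 2 the combination did so at 76 of 84. At the regions lower with EPZ-6438 it lay above DMSO at 5 of 97 and 11 of 125. Over all tested regions with a value the shares above DMSO were 50.1% and 49.9%. That level is largely set by the shift, so it is no independent baseline. The median difference of combination minus DMSO was 0.93 and 0.79 at the higher regions and -0.80 and -0.79 at the lower ones. At the regions with a value, the combination thus mostly differed from DMSO in the direction in which EPZ-6438 differed from P5091. The difference also moved with strength (given with the strength classes), and its part in these counts was not tested.

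Set against DMSO one at a time, the compounds gave the following medians, which share libraries with the choice of regions and with each other. At the 90 higher regions EPZ-6438 minus DMSO was 1.18 and 1.02 in replicates 1 and 2, and P5091 minus DMSO was -0.19 and 0.08. At the 132 lower regions EPZ-6438 minus DMSO was -0.94 and -1.02, and P5091 minus DMSO was 0.12 and -0.04. In these medians the distance between the compounds was mostly a distance of EPZ-6438 from DMSO, in either replicate.

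The sign of the difference varied with the strength of the site. Tested regions were divided into 10 equal classes by mean log2 tag count. In the weakest class, with a median tag count of 12.7, the median difference of EPZ-6438 minus P5091 was 0.052 in replicate 1 and 0.079 in replicate 2. In the strongest, with a median of 86.1, it was -0.083 and -0.091, so weak sites were slightly higher and strong sites slightly lower with EPZ-6438. These shifts are small beside the spread of single regions, an SD of 0.466 and 0.474 in the weakest and 0.327 and 0.293 in the strongest class. In the strongest class 7 regions were called higher and 49 lower. Combination minus DMSO ran from 0.13 to -0.174 in replicate 2 and from 0.727 to -0.273 in the weak replicate 1. With each library's trend on strength removed, limma called 101 regions higher and 102 lower, and the excess of lower calls was gone.

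**Figure D5:**
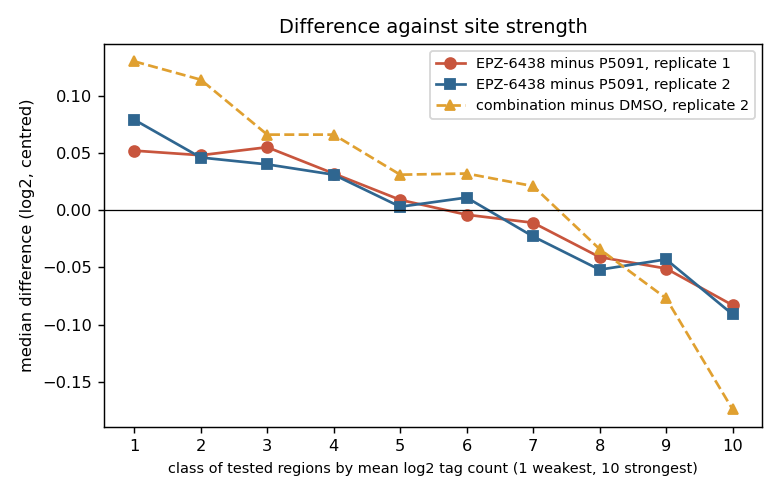
Median centred log2 difference (vertical axis) in 10 equal classes of the 44445 tested regions by mean tag count (horizontal axis, weakest to strongest), for EPZ-6438 minus P5091 in each replicate and for combination minus DMSO in replicate 2; points are medians over regions. All 3 lines fall, from 0.052, 0.079 and 0.13 to -0.083, -0.091 and -0.174. DMSO and combination values were shifted to the mean of the EPZ-6438 and P5091 libraries, not centred on their own medians.

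Differences between the compounds were also summed over windows of 1 Mb with at least 10 tested regions, a description chosen after the data were seen, with no test. Of 2166 windows, 11 (0.508%) had a mean difference of EPZ-6438 minus P5091 of at least 0.25 (log2) in both replicates, 4 (0.185%) were lower by as much in both, and 0 were so in opposite directions. The highest mean was at chr12:67000001-68000000, with 0.44 in replicate 1 and 0.48 in replicate 2 over 11 regions. There 8 regions were higher in both replicates and 1 lower in both, and 0 were called singly by limma. The lowest was at chr3:166000001-167000000, with -0.42 and -0.33 over 15 regions, of which 3 were called. In combination replicate 2 all 11 of the higher windows lay above DMSO (median 0.36) and 0 of the 4 lower ones did (median -0.24), beside 1114 of all 2166. In the weak combination replicate 1 the counts for the higher and lower windows were 10 and 2. The share over all windows is largely set by the shift of the DMSO and combination libraries.

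Genes near these regions and the motifs within them were not analysed here, since no hg19 sequence or gene annotation was used.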

How the data were processed

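Peak lists of 12 ChIP-seq libraries were used, 4 of them compared here. The submitters' processing notes name Bowtie2, HOMER 4.2 and build hg19. HOMER called the peaks of every library on its own, per the file headers, with a false discovery rate of 0.001 and tags in at least 4-fold excess over a local 10 kb window (Poisson p 0.0001). FOXA1 peaks also had to exceed an input library by 4-fold, per the file headers; 1 input per treatment served both replicates, and the HA lists had none. The deposited normalized tag count is a signal scaled to 1e7 tags, as the headers state. A stricter threshold used the deposited findPeaks score, at or above 21, the pooled median, and the same score ranked the peaks for equal numbers of top peaks. Each deposited fold (over input or over the local window) is a ratio from the peak caller and was not tested. The deposited total tag count per peak, a whole-number count listed for 3 libraries, entered no test.

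Peaks sharing at least 1 base were merged, and the highest peak of a library in a region gave its tag count there. Regions called in all 4 libraries were tested with limma 3.58.1 (R 4.3.3, trend on) on log2 (tag count + 1), centred on each library's median, modelling treatment and replicate number, with p-values adjusted by Benjamini-Hochberg (threshold 0.05). The log2 (tag count + 1) scale understates changes of weak regions. For values set against DMSO, each DMSO and combination library was shifted by its median difference from the mean of the EPZ-6438 and P5091 libraries. Replicate numbers come from the titles; they pair the libraries, since deviations of replicate 1 from its group mean correlated between all 6 pairs of groups (0.148 to 0.488 over 24188 regions). Peak numbers and medians were compared by exact permutation, two-sided. Merging and limma were tested on simulated data.

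Named regions, on chromosomes 1 to 22 and X, were the 5 with the smallest p in each direction and the same sign in both replicates, the 5 compound-only regions per compound by the lower of the 2 tag counts, and the 3 strongest, skipping neighbours of the same kind within 10 kb. Compound-only regions without a neighbour were ranked the same way after their values were seen. The members and lists were chosen with earlier results of these data known. Alternatives were the replicate block, centring, quantile normalization, removal of the strength trend, pseudocount, score, merging, other libraries in the fit and leaving out libraries. Added after seeing the data were chromosomes 1 to 22 and X alone, the fit of 7 libraries with its left-out libraries, single replicate numbers for compound-only regions, and other choices of regions for combination minus DMSO.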

Additional observations from a re-analysis of the deposited data

How the results depend on the processing

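Of the 222 regions called by limma, the count was 0 with no replicate block (1604 at an unadjusted p under 0.05), 8 with all 8 libraries, 98 of 24086 among regions with a score at or above the median, and 66 with 7 libraries; it stayed between 162 and 229 without centring, with quantile normalization, with the strength trend removed, with a pseudocount of 5 and on chromosomes 1 to 22 and X alone. Leaving out each library without the block gave 0 to 0 calls (1220 to 2778 unadjusted), and in the fit of 7 libraries 41 without EPZ-6438 replicate 1, 96 without EPZ-6438 replicate 2, 0 without P5091 replicate 1 and 10 without P5091 replicate 2. The 125 regions 2-fold apart in both replicates became 36 with a pseudocount of 5, 20 at a score at or above the median, and 1332 to 2006 with 1 replicate number. Regions called with EPZ-6438 only numbered 1448, and with P5091 only 1162, at a score at or above the median, and 7832 to 24274 and 7360 to 20278 with libraries left out, where fewer libraries have to call or miss a region. The difference in median tag count ranged from -0.103 to 0.014 and in log2 peak number from -0.032 to 0.242 with libraries left out, each turning once. Sign flips within replicate numbers, a replicate block, gave p = 1.0 and 0.5 by exact permutation, and no p under 0.5 can be reached by these flips. The 10 called named regions were chosen for a small p and the same sign in both replicates. Without the block, and in the fits of 7 or 8 libraries, the estimate stays nearly the same by design. The following count therefore has little bearing on direction. Named regions kept their direction in all but 6 of 204 settings, and the 71 in which a call was lost were of the 10 called regions. The 6 were the strongest sites, none of them called: chr2:242032793-242033166 with quantile normalization (0), chr15:69886978-69887346 without EPZ-6438 replicate 2 (0.16) and without P5091 replicate 1 (0.1; -0.58 to 0.16 over the left-out libraries), and chr8:52811544-52811913 without EPZ-6438 replicate 1 (-0.02), without P5091 replicate 2 (-0.08; up to 0.27 over the left-out libraries) and without the latter in the fit of 7 libraries (-0.06). The share of higher regions with the combination above DMSO was 90.1% to 100%, and of lower regions 4.62% to 17.3%, with regions chosen by the 2-fold rule or after quantile normalization. The planned edgeR alternatives (TMM and RLE factors) were not run, because the normalized tag counts were treated as a signal. Depth limits what a missing call can show: regions below 6.2 to 8.13 normalized tags were not listed.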

Other observations

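EPZ-6438-only regions outnumbered P5091-only regions 1.38 to 1 over the genome, and on 18 of 23 chromosomes. The ratio ran from 1.96 on chromosome 18 to 0.796 on chromosome 22, and chromosomes 16, 17, 19 and X were also below 1. With equal numbers of top peaks the counts were 3379 and 3425, and the ratios by chromosome were not computed for that setting.

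Of the 222 called regions, 4 lay outside chromosomes 1 to 22 and X. On the unplaced contig gl000220, 3 regions had tag counts above those of the strongest named sites. At positions 134049 to 134411 the values were 5561.4 and 5332.9 with EPZ-6438 and 2267.5 and 3137.5 with P5091, 2505.6 in DMSO replicate 2 and 2166.3 and 4489.4 with the combination, and DMSO replicate 1 had no peak. Such contigs can gather reads of repeated sequence, and no region was left out for that; on chromosomes 1 to 22 and X alone limma called 216 regions.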
